A study of Homo sapiens with 6 samples.

Results

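The genes described here are the 10 origin licensing and firing factors CDC6, CDT1, GMNN, CDC7, DBF4, CDC45, GINS1, GINS2, GINS3 and GINS4. They were taken by gene name from an expression table of 34738 genes, and all 10 were found. The list was chosen with earlier results of these data known. Of these genes, 10 of 10 had a mean level high enough to be tested, among 11867 genes tested in all. RNA-seq was performed on KHM-5M, a human thyroid cancer cell line, after transfection of an siRNA against GDF15 (siGDF15), a secreted cytokine of the TGF-beta superfamily, and on control cells (NC). Each group held 3 libraries, which the study's methods call biological replicates, so p-values measure the spread between these libraries. Per the methods, the siGDF15 cells received the siRNA with Lipofectamine in serum-free medium. The methods list a single siRNA sequence against GDF15, so effects of that sequence on other genes cannot be told apart from GDF15 silencing. The time from transfection to RNA extraction was not given in the sources used here. The NC cells are named negative control cells in the methods, which list a negative control siRNA, and blank control in the deposited description. Whether they received an siRNA was therefore not settled. If they did not, an effect of GDF15 silencing cannot be told apart from that of transfection or of the serum-free medium. The labels name KHM-5M, whereas a figure legend of the paper names another thyroid cancer line, TPC-1, for the sequenced cells.

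Before a cell copies its DNA, each replication origin is licensed in G1 phase: the origin recognition complex and CDC6 bind the DNA and, with CDT1, load the MCM helicase in an inactive form. Geminin, encoded by GMNN, binds CDT1 and blocks further loading once S phase has begun. At S phase entry, the kinase CDC7 with its activating subunit DBF4 phosphorylates the loaded helicase, and CDC45 and the GINS complex then join it to form the active CMG helicase. Most of these genes are transcribed in proliferating cells, with E2F factors acting at many of their promoters.

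The promoters of these genes were examined first, because E2F sites are a feature described for several of them. RefSeq start sites were available for 9 of the 10 genes, all but GINS4 (GRCh38.p14). Each window ran from 250 bases before to 50 bases after a start. Windows were searched on both strands for the E2F letters TTTCCCGC, TTTGGCGC, TTTCGCGC and TTTGCCGC. Such letters were present in 7 of the 9 genes with a window (CDC6, CDT1, GMNN, CDC7, GINS1, GINS2 and GINS3). Counted per window, the share was 3.31% of all 35116 windows searched. Counted per gene, as for the members, it was 3.99% of 27305 genes and 6.93% of the 8820 tested genes with a window. The 120 bases from 100 before to 20 after the start are shown for these 7 genes, read along the gene's strand, with the E2F letters of either strand in capitals. For genes with more than 1 start, the start whose window held the letters is used.
CDC6 (chr17:40287779-40287898, plus strand): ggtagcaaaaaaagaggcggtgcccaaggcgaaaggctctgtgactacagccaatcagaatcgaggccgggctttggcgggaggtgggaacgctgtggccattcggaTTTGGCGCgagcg
CDT1 (chr16:88803689-88803808, plus strand): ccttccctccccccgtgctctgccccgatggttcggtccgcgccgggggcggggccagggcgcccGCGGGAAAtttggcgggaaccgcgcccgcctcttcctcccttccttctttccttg
GMNN (chr6:24775313-24775432, plus strand): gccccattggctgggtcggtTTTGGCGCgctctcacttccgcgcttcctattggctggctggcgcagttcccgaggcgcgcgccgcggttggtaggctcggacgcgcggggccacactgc
CDC7 (chr1:91501012-91501131, plus strand): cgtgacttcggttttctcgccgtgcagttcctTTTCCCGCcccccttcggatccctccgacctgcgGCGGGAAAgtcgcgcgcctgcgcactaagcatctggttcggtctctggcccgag
GINS1 (chr20:25407573-25407692, plus strand): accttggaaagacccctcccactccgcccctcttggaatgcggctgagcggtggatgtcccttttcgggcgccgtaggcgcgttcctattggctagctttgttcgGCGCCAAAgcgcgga
GINS2 (chr16:85688935-85689054, minus strand): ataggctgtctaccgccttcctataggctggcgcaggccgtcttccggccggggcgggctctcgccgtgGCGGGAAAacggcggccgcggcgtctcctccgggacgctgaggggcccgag
GINS3 (chr16:58392371-58392490, plus strand): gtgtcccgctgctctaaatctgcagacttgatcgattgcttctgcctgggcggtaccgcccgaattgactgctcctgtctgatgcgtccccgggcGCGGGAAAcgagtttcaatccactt

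The first base of the E2F letters, in reading order along the gene, lay 68 bases before the start on the gene's strand and 34 before it on the opposite strand in CDC7, which held 2 matches. The other 6 genes held 1 match each, at 80 bases before the start in GMNN, 35 in CDT1, 31 in GINS2 and 5 in GINS3. In CDC6 and GINS1 the match began at positions 8 and 6, counted from 1 at the start base. The windows of DBF4 and CDC45 did not contain any of the letters searched for E2F. DBF4 held TTTGAA, a form of the CHR element of G2 and M phase genes, 3 bases before its start on the opposite strand. CHR letters (TTTGAA or TTCGAA) were found in 1 of the 9 genes, against 15.1% of the tested genes with a window. CCAAT boxes were found in 5 of the 9 genes (CDC6, GMNN, GINS1, GINS2 and CDC45), against 43.5% of those tested genes, and none of the matches overlapped a match of another motif. A match describes letters only and is not evidence of binding.

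**Figure D1:**
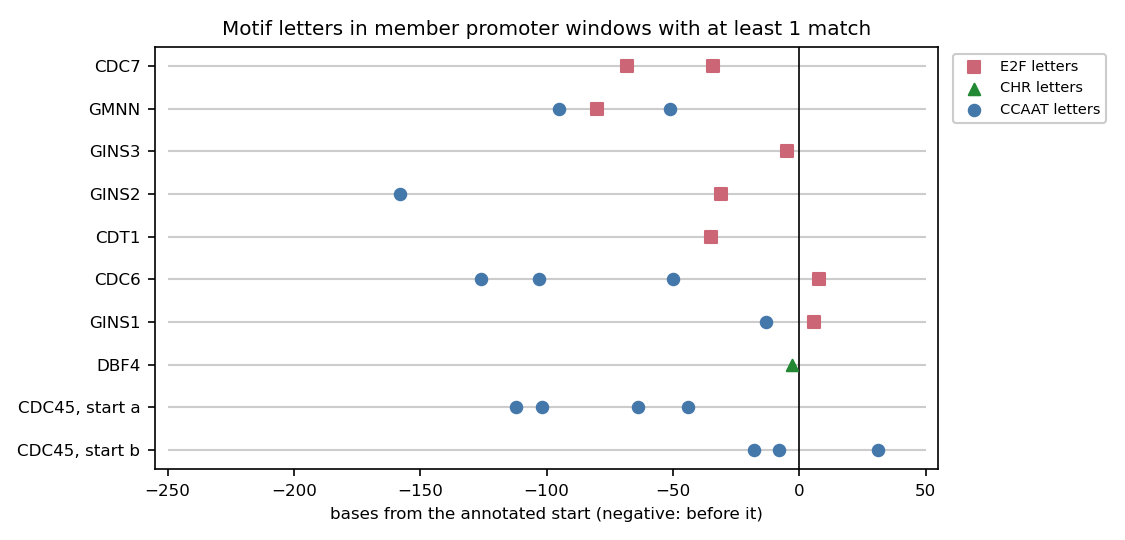
Positions of E2F (squares), CHR (triangles) and CCAAT (circles) letters in the promoter windows of the licensing and firing factors that held a match. The x axis gives bases from the annotated start, negative before it, and each line is 1 window. E2F letters are present in 7 genes, and their first bases lie between 80 bases before the start and position 8 after it.

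Sequencing and labels were checked next. Total counts were between 67569576 and 68025163 in 5 libraries and 51738814 in siGDF15 replicate 2. GDF15 was at 21.6 ± 2.03 FPKM in NC and 10.7 ± 0.166 in siGDF15 (SD, n = 3 each), where FPKM is the number of sequenced fragments scaled to the length of the transcript and the depth of the library. Its log2 fold change was -0.92 (SE 0.0792, edgeR adjusted p = 2.4e-05), and 49.2% of the NC mean remained. GDF15 was thus short of the log2 threshold of -1 used below, and each of the 10 members had a lower log2 fold change (-1.04 or less). PAX8, a thyroid transcription factor, was between 54.3 and 64.9 FPKM in NC and between 77.5 and 80.4 in siGDF15. It was called higher in siGDF15 (log2 fold change 0.53, edgeR adjusted p = 1.2e-04). FOXE1, another, was between 2.53 and 2.94 FPKM and was not called (0.14, edgeR adjusted p = 0.22). NKX2-1 and the differentiation genes TG and SLC5A5 were at 0.219 FPKM or less in every library. Of 4 markers of other cell types, PTPRC (leukocytes) and PECAM1 (endothelium) were at 0.161 FPKM or less, while the fibroblast genes DCN and COL1A1 were at 0.465 to 0.631 and 4.67 to 6.78 FPKM, and COL1A1 did not pass the test between groups (log2 fold change 0.06, edgeR adjusted p = 0.70). Mitochondrially encoded genes held 6.39 to 6.78% of counts in NC and 8.53 to 9.17% in siGDF15, and their part in the results was not tested.

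All 10 licensing and firing factors were lower in siGDF15 cells. Their summed level was 115, 111 and 120 FPKM in the NC libraries and 44.9, 39.7 and 40.5 FPKM in the siGDF15 libraries. Each gene passed the test (edgeR quasi-likelihood, adjusted over all 11867 genes tested, threshold 0.05), with adjusted p between 9.1e-07 and 2.6e-05. In all 10 genes the groups did not overlap, with each siGDF15 library under the lowest NC library. Differences were widespread in these cells: 31.4% of all tested genes were called lower, 30.0% were called higher and 42.8% had all siGDF15 libraries below all NC libraries. With a log2 fold change of -1 or less also required, 10 of 10 members were called, against 4.78% of the tested genes. The median log2 fold change was -1.38 over the members and 0.003 over all tested genes. In bulk RNA, fewer cells in the replicative part of the cell cycle cannot be told apart from less of these transcripts in each cell.

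**Figure D2:**
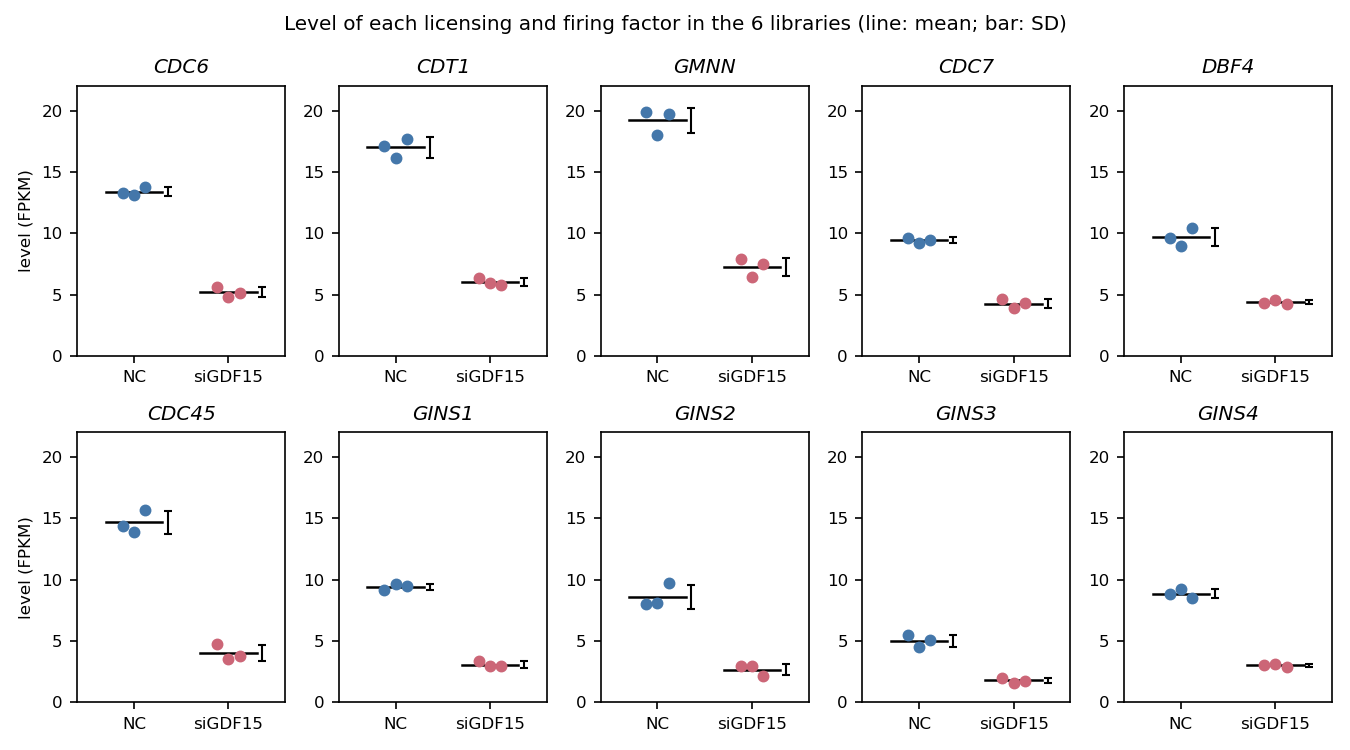
Level (FPKM, y axis from 0) of the 10 licensing and firing factors in NC and siGDF15 cells. Points are libraries, horizontal lines the mean and bars the SD of 3 libraries. In every panel the 3 siGDF15 points lie below the 3 NC points.

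CDC6 and CDT1, the helicase loading factors, both fell. CDC6 (ENSG00000094804, chr17:40287879-40304657, plus strand; positions here are those of the deposited table, GRCh38) was at 13.3, 13.1 and 13.8 FPKM in NC and 5.60, 4.84 and 5.16 FPKM in siGDF15. Its log2 fold change was -1.26 (SE 0.0639, edgeR adjusted p = 1.6e-06), and its siGDF15 mean was 38.8% of the NC mean. CDT1 (ENSG00000167513, chr16:88803789-88809258, plus strand) was at 17.1, 16.1 and 17.7 FPKM in NC and 6.39, 5.93 and 5.76 FPKM in siGDF15, 35.5% of the NC mean. For both genes the highest siGDF15 library was far below the lowest NC library, and the replicates of a group lay close together. The log2 fold change of CDT1 was -1.39 (SE 0.0689, edgeR adjusted p = 1.5e-06). Fold changes come from counts scaled by TMM, which sets the bulk of genes equal between libraries, and are therefore slightly smaller than the ratios of the FPKM means.

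Geminin, the inhibitor of CDT1, fell alongside its target. GMNN (ENSG00000112312, chr6:24774931-24786099, plus strand) was at 19.9, 18.0 and 19.7 FPKM in NC and at 7.89, 6.41 and 7.46 FPKM in siGDF15, or 37.8% of the NC mean. Its log2 fold change was -1.30 (SE 0.0833, edgeR adjusted p = 5.0e-06). The licensing activator and its inhibitor were thus both lower. Within a library, the log2 ratio of CDT1 to GMNN in FPKM was -0.18 ± 0.0381 in NC and -0.26 ± 0.135 in siGDF15 (SD, n = 3 each). The groups overlapped, and the difference of -0.08 had an exact two-sided permutation p of 0.4 (adjusted p = 0.8 over 8 ratios). It was -0.16 without siGDF15 replicate 2 and -0.03 without siGDF15 replicate 3. With 3 libraries against 3, the smallest p that this test can give is 0.1, so no ratio could pass a threshold of 0.05.

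The CDC6 to CDT1 ratio was -0.36, -0.29 and -0.36 on the log2 scale in NC and -0.19, -0.29 and -0.16 in siGDF15. The siGDF15 mean was higher by 0.13 on the log2 scale, and the groups did not overlap when unrounded values were compared. The exact permutation p was 0.1, the smallest possible, and 0.4 after adjustment.

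The DDK kinase genes showed the smallest differences of the 10. CDC7, the catalytic subunit (ENSG00000097046, chr1:91500851-91525764, plus strand), was at 9.65, 9.20 and 9.44 FPKM in NC and 4.60, 3.92 and 4.28 FPKM in siGDF15. DBF4, the regulatory subunit (ENSG00000006634, chr7:87876216-87908376, plus strand), was at 9.58, 8.97 and 10.4 FPKM in NC and 4.31, 4.54 and 4.27 FPKM in siGDF15. Both subunits were at 45.3% of their NC mean. The log2 fold change was -1.04 for CDC7 (SE 0.0691, edgeR adjusted p = 5.9e-06) and -1.04 for DBF4 (SE 0.0756, edgeR adjusted p = 9.6e-06). These values lie at the threshold of -1, and under 3 of 14 alternative settings each gene was short of it. Without siGDF15 replicate 2 the value of CDC7 was -0.99, and without NC replicate 3 that of DBF4 was -0.97. In FPKM, the transcripts of the catalytic and regulatory subunits were at nearly equal level in both groups. Their highest expected counts were 2614 for CDC7 and 3592 for DBF4, so this likeness rests on the transcript lengths used for the deposited FPKM. The log2 ratio of DBF4 to CDC7 was 0.03 ± 0.0973 in NC and 0.04 ± 0.157 in siGDF15, with overlapping groups (exact permutation p = 0.9).

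CDC45, which joins the loaded helicase as part of CMG, had the lowest fold change of the 10 genes. CDC45 (ENSG00000093009, chr22:19479457-19520612, plus strand) was at 14.4, 13.9 and 15.7 FPKM in NC and 4.74, 3.50 and 3.81 FPKM in siGDF15, 27.4% of the NC mean. Its log2 fold change was -1.76 (SE 0.110, edgeR adjusted p = 4.3e-06), which is 3.39-fold lower. Only 96 of the 11867 tested genes, or 0.809%, had a lower log2 fold change. Leaving out single libraries gave log2 fold changes between -1.89 and -1.68.

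The 4 GINS genes encode the subunits of a tetramer, and all 4 fell, by 2.60-fold (GINS3) to 2.99-fold (GINS2). GINS1 (ENSG00000101003, chr20:25391008-25449072, plus strand) was at 9.19, 9.66 and 9.48 FPKM in NC and 3.40, 2.93 and 2.94 FPKM in siGDF15. GINS2 (ENSG00000131153, chr16:85676198-85688954, minus strand) was at 8.01, 8.08 and 9.73 FPKM in NC and 2.93, 2.94 and 2.17 FPKM in siGDF15. NC replicate 3 was the highest and siGDF15 replicate 3 the lowest GINS2 library, which gave this gene the widest error of the 10. GINS3 (ENSG00000181938, chr16:58295080-58406147, plus strand) was at 5.50, 4.50 and 5.06 FPKM in NC and 2.01, 1.58 and 1.78 FPKM in siGDF15. GINS4 (ENSG00000147536, chromosome 8, 41529218 to 41545030, plus strand) was at 8.82, 9.26 and 8.53 FPKM in NC and 3.05, 3.14 and 2.89 FPKM in siGDF15. GINS3 was the least abundant subunit in every library, with a lowest expected count of 468, in siGDF15 replicate 2.

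The log2 fold change was -1.50 for GINS1 (SE 0.0683, edgeR adjusted p = 9.9e-07) and -1.58 for GINS2 (SE 0.138, edgeR adjusted p = 2.6e-05). For GINS3 it was -1.38 (SE 0.109, edgeR adjusted p = 1.5e-05), and for GINS4 -1.44 (SE 0.0641, edgeR adjusted p = 9.1e-07). The summed GINS level was 31.5, 31.5 and 32.8 FPKM in NC and 11.4, 10.6 and 9.78 FPKM in siGDF15. Each subunit was also set against the mean of the other 3 within a library. In these ratios the siGDF15 minus NC difference was -0.04 for GINS1, -0.14 for GINS2, 0.13 for GINS3 and 0.05 for GINS4 on the log2 scale. The groups overlapped for each subunit, with exact permutation p of 0.6, 0.5, 0.4 and 0.7 and adjusted p of 0.8 for each. Single libraries moved these differences: that of GINS2 was -0.02 without siGDF15 replicate 3 and -0.25 without siGDF15 replicate 2, and that of GINS3 was 0.05 without NC replicate 2 and 0.24 without siGDF15 replicate 2. With 3 libraries a group, the permutation test could not give a p under 0.05. It cannot decide whether the proportions of the GINS transcripts shifted.

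CDC45 had a lower fold change than each of the GINS genes it works with. Without siGDF15 replicate 2, its log2 fold change was -1.68, close to the -1.65 of GINS2. The difference from GINS2 alone was not tested. The log2 ratio of CDC45 to the mean of the 4 GINS genes was 0.90, 0.88 and 0.98 in NC and 0.76, 0.45 and 0.67 in siGDF15. As a linear ratio this was 1.89 in NC and 1.55 in siGDF15. The groups did not overlap, and the difference of -0.29 gave the smallest exact permutation p possible, 0.1, with an adjusted p of 0.4 over the 8 ratios. Without single libraries the difference was between -0.36 and -0.21.

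**Figure D3:**
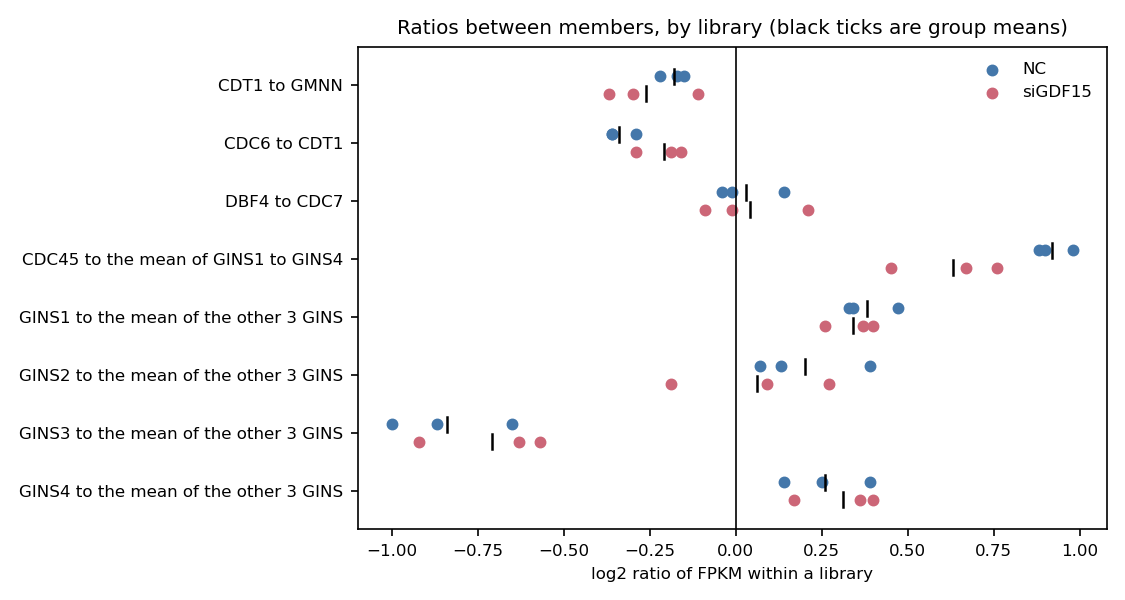
Log2 ratios of FPKM between licensing and firing factors within each library (x axis), with NC and siGDF15 libraries as points and group means as black ticks. The groups do not overlap for CDC6 to CDT1 and for CDC45 to the GINS mean, and they overlap for the other 6 ratios.

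Set against all tested genes, the 10 members lay at the lower end of the fold changes. The number of tested genes with a lower log2 fold change ran from 96 for CDC45 to 545 for DBF4, or 4.59% of those tested. The SD of the 10 log2 fold changes was 0.226, against a median standard error of 0.0723 for a single gene. The SD among members was larger than this median error, with the helicase activators CDC45 and GINS2 at the low end and the DDK subunits at the high end. CDC45 (SE 0.110) and GINS2 (SE 0.138) had errors above that median. No test was made over the members, since they are not replicates.

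**Figure D4:**
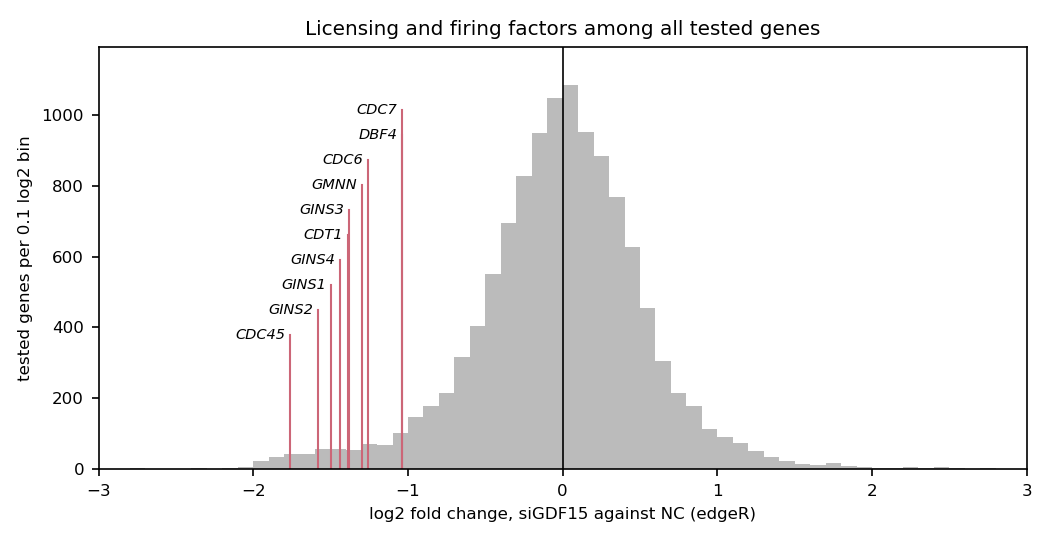
Distribution of edgeR log2 fold changes (x axis, siGDF15 against NC) over the tested genes, in bins of 0.1 (grey, y axis in genes), with the 10 licensing and firing factors as red lines whose heights have no meaning. The members lie between -1.76 and -1.04, while the median of all tested genes is 0.003.

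The order of the levels, which FPKM allows since it is scaled to length, was partly kept. The order rests on the transcript lengths used for the deposited FPKM. In NC it was GMNN (19.2 ± 1.04 FPKM), CDT1 (17.0 ± 0.846), CDC45 (14.7 ± 0.934) and CDC6 (13.4 ± 0.361; SD, n = 3 each), none of which overlapped its neighbour. DBF4, GINS1, CDC7, GINS4 and GINS2 followed between 9.66 and 8.61 FPKM, each overlapping the next. GINS3 was lowest at 5.02 ± 0.501 FPKM. In siGDF15, GMNN (7.25 ± 0.761), CDT1 (6.03 ± 0.323) and CDC6 (5.20 ± 0.378) led without overlap between neighbours, and GINS3 was again lowest at 1.79 ± 0.216 FPKM. By group mean, CDC45 moved from rank 3 to rank 6, at 4.02 ± 0.648 FPKM. Its range overlapped those of CDC7 and DBF4 and not that of GINS1. In siGDF15 replicate 1, CDC45 (4.74 FPKM) was above both CDC7 (4.60) and DBF4 (4.31). Among the siGDF15 libraries, replicate 1 was the highest in 7 members and replicate 2 the lowest in 6.

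Other genes of replication initiation fell as well. Of 42 genes listed by role, 41 were tested, and GMNC, a relative of geminin, was below the filter. Of those tested, 34 were called lower and 2 higher (edgeR adjusted p under 0.05), their median log2 fold change was -1.13, and 23 were past the log2 threshold of -1. The shares over all tested genes were 31.4% lower, 30.0% higher and 4.78% lower and past this threshold. All 6 subunits of the MCM helicase core, which CDC6 and CDT1 help to load and DDK phosphorylates, were lower, by -1.52 to -1.02 on the log2 scale. Among them were MCM3 (-1.30, edgeR adjusted p = 8.6e-07), MCM2 (-1.21, adjusted p = 9.2e-07) and MCM7 (-1.13, adjusted p = 1.1e-06). In the origin recognition complex 5 of 6 subunits were lower, with ORC6 at -1.53, ORC1 at -1.21 and ORC3 at -0.70. Its 6 values ranged from -1.53 to -0.26, a wider range than in the helicase core.

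The 6 factors that act with CDC45 and GINS at firing were all lower, with a median of -1.74. RECQL4 (log2 fold change -1.82, edgeR adjusted p = 3.5e-07), the TICRR partner MTBP (-1.84, adjusted p = 7.3e-07) and MCM10 (-1.75, adjusted p = 7.9e-07) had values near that of CDC45. TOPBP1, at -0.96, was the one of the 6 short of the log2 threshold and is named here after its value was seen. DBF4B, the other activating subunit of CDC7, was at 4.78, 4.40 and 4.80 FPKM in NC and 1.28, 1.17 and 1.32 FPKM in siGDF15. Its log2 fold change of -1.78 (SE 0.0731, edgeR adjusted p = 7.3e-07) was lower than the -1.04 of DBF4. The difference between these fold changes was not tested.

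Genes that restrain or remove the licensing factors were mixed. Of 9 genes for the turnover of CDT1 and CDC6, 6 were lower and 2 higher. Over all tested genes, 31.4% were called lower and 30.0% higher, so calls in either direction were common and these small counts are descriptive only. PCNA, on which CDT1 is marked for destruction (-1.20, edgeR adjusted p = 1.0e-06), DTL, the substrate receptor for CDT1 (-1.62, adjusted p = 1.4e-06), and CCNF, the cyclin F subunit of a ligase for CDC6 (-1.53, adjusted p = 4.9e-06), were lower. CUL4B and DDB1, the scaffold and adaptor of the ligase that DTL joins, were higher by 0.30 (adjusted p = 1.6e-03) and 0.36 (adjusted p = 1.4e-04) on the log2 scale. Of 4 genes that oppose DDK, RIF1 (-0.70, edgeR adjusted p = 2.2e-05) and the phosphatase subunit PPP1CC (-0.32, adjusted p = 5.5e-04) were lower. The geminin relative MCIDAS was lower (-0.71, edgeR adjusted p = 0.012). Of 8 partners of CMG at the fork, 7 were lower with a median of -1.42 over the 8, including POLE (-1.28), TIMELESS (-1.56), WDHD1 (-1.61) and CLSPN (-1.90). The 5 genes that did not pass the test, named after their values were seen, were ORC5 (-0.26), CUL4A (0.04), PPP1CA (-0.05), PPP1CB (0.03) and POLE4 (-0.12).

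**Figure D5:**
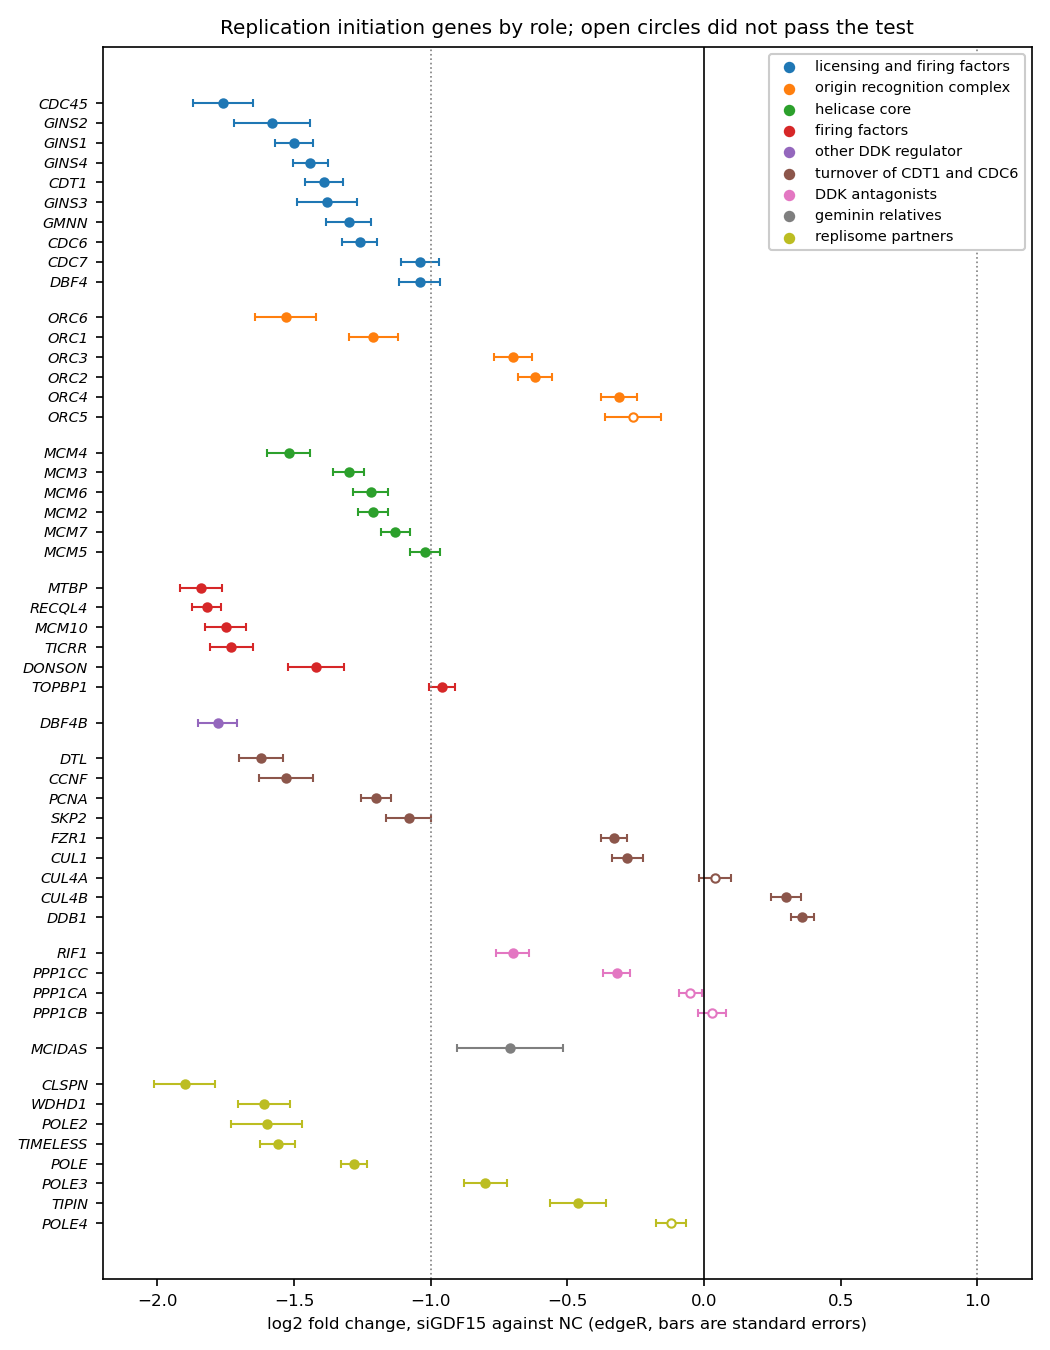
Log2 fold change (x axis, siGDF15 against NC, edgeR) of the licensing and firing factors and of the tested replication initiation genes, grouped by role, with standard errors as bars and dotted lines at -1 and 1. Filled circles passed the test at an adjusted p under 0.05 and open circles did not. The 10 members lie between -1.76 and -1.04, and CUL4B and DDB1 are the called genes above 0.

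Markers of cycling cells moved with these genes. All 30 listed S phase genes other than the members were lower, 22 of them past the log2 threshold, with a median of -1.40, close to the -1.38 of the members. Their summed level was 746 to 766 FPKM in NC and 271 to 307 FPKM in siGDF15. All 24 listed G2 and M phase genes were lower and past the threshold, with a median of -1.70 and a summed level of 1000 to 1090 FPKM in NC and 289 to 337 FPKM in siGDF15. Of 6 housekeeping genes 2 were lower, 1 was higher and 3 were not called, with a median of -0.04. For comparison, 31.4% of all tested genes were called lower, 30.0% higher and 4.78% lower and past the threshold. The part of the cell cycle distribution in the fall of the licensing and firing factors was not tested.

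Further properties that could bear on the members' values were measured. The letters CTCATTC, which pair with bases 2 to 8 of the antisense strand of the siGDF15 duplex, were absent from the longest annotated 3′UTR of all 10 members (GENCODE 29) and present in 1537 of 10575 tested genes with such a UTR (14.5%). The 3′UTRs of the members were 287 to 3127 bases long, against a median of 1632 over those genes. Effects of the siRNA on the members by way of other genes that hold the letters were not tested. In the deposited coordinates, CDC45, DBF4, GINS2, GINS3 and GINS4 shared bases with a gene on the opposite strand. For DBF4 this was SLC25A40, over 145 bases and at a mean of 3.54 FPKM, and for GINS2 it was GSE1, over 7 bases and at 3.88 FPKM. The genes that overlap CDC45, GINS3 and GINS4 were at 0.163 FPKM or less, below the level of these members in every library. The strand setting of the counting was not given in the sources used here, so reads in the shared bases cannot be assigned with certainty.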

How the data were processed

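RNA-seq was performed on 3 siGDF15 and 3 NC libraries of KHM-5M cells. Per the submitters' processing notes, reads were processed with fastp, HISAT2, StringTie and edgeR on GRCh38, and versions were not given in the sources used here. FPKM values deposited by the authors are scaled to library size and transcript length. The authors also deposited expected counts, which StringTie derives from coverage and which are not a tally of reads. The value 4 was the most frequent of the deposited expected counts between 1 and 20 (15.6% of them), although 28.8% of them in all were multiples of 4, so that counts do not convert exactly to read pairs. Columns of the authors' own comparisons were not used.

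Expected counts, already whole numbers, were tested with the edgeR (version 4.0.16, R 4.3.3) quasi-likelihood test after TMM scaling, without covariates, on 11867 genes whose FPKM averaged 1 or more. P-values were adjusted by the Benjamini-Hochberg method over all genes tested, with a threshold of 0.05. Differentially expressed genes also had an absolute log2 fold change of at least 1. Ratios between members were computed on log2 FPKM within libraries and compared by exact two-sided permutation tests. Alternatives were DESeq2 (version 1.42.0), total count and median scaling, FPKM filters of 0.1 and none, limma (version 3.58.1) on log2 of FPKM plus 1, counts divided by 4 as an approximate number of read pairs, a replicate block, and leaving out each library. For ratios a pseudocount of 0.1 was tried. The scripts were tested on simulated data.

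All 10 members were named, together with GDF15 and, for each role of the replication initiation list, up to 3 genes with the smallest adjusted p (ties included) and any gene called in the opposite direction. Genes named outside this rule are said to be so where they appear. The members and lists were chosen with earlier results of these data known. Promoter windows came from RefSeq (GRCh38.p14) and 3′UTRs from GENCODE 29.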

Additional observations from a re-analysis of the deposited data

How the results depend on the processing

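Each of the 10 members was lower at an adjusted p under 0.05 under all 14 alternative settings (edgeR, DESeq2 or limma), so that 140 of 140 member values kept their direction and their side of the threshold. The median log2 fold change of the members was -1.48 under scaling to total counts in place of TMM, a setting that moved the median of all tested genes to -0.099. It was between -1.43 and -1.34 when single libraries were left out. The number of members past the log2 threshold was 8 under scaling to equal median counts and with limma, and between 9 and 10 without single libraries. In these cases CDC7 or DBF4 came to between -0.99 and -0.97 on the log2 scale. Without single libraries, the siGDF15 minus NC difference in the log2 ratio ran from -0.08 to 0.07 for DBF4 to CDC7, from -0.07 to 0.01 for GINS1 and from -0.02 to 0.12 for GINS4 against the other 3 GINS genes, so the sign of these ratios is not determined. With the replicate block, 10 members were lower, their log2 fold changes lay between -1.77 and -1.03, and 34 genes of the replication initiation list were lower and 2 higher. Same-numbered libraries did not deviate together (correlations of 0.03, -0.08 and 0.05 across genes), and not every library correlated best with its own number, so the numbers were not taken to pair the samples. The block gave 6906 called genes in all, against 7286 without it. The lowest expected count of a member was 468 (GINS3), and with counts divided by 4 all members stayed lower, with adjusted p of at most 1.9e-05 (edgeR).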

Other observations

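Of the terms in the annotation columns of the deposited table, 3 were looked up for the licensing and firing factors. The KEGG cell cycle term lists 4 of the 10 (CDC6, CDC7, CDC45 and DBF4), and the KEGG DNA replication term lists 0 of them, although all act in that process. A Reactome term for proteins localized at the replication fork lists 5 (CDC45 and the 4 GINS genes).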
